A study of Mus musculus with 6 samples.

Results

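The solute carrier genes described here are those rows of the deposited expression table whose symbol starts with Slc and a digit, with a mean of at least 20 normalized counts over the 6 libraries. Of 223 rows with such a symbol among 15944 genes, 174 were kept, 46 lay below the mean of 20, and Slc24a3, Slc2a1 and Slc2a3 were left out by name. Each was placed in 1 of 11 substrate classes by its family number, and 43 families on 20 chromosomes were represented. The 3 kept rows with the lowest mean were Slc6a8 (20.7), Slc29a2 (21) and Slc29a4 (21.6), and the 3 highest below the limit were Slc5a11 (16.7), Slc2a6 (13.5) and Slc3a1 (13.2). Slc5a11, a sodium-coupled inositol carrier, was listed at 95.3 in RORγt+ replicate 1 and at no more than 1.58 in the other 5 libraries. The limit was set on the mean of both groups, and 4 of the 174 genes, Slc6a8, Slc29a2, Slc29a4 and Slc9b2, had a mean under 20 in 1 of them. Slc symbols are assigned to some genes that encode no carrier, and 4 of the 174 are of that kind: Slc9a3r1 (a membrane scaffold protein), Slc4a1ap (an adaptor protein), Slc7a6os (a gene on the opposite strand beside Slc7a6) and Slc2a4rg-ps (a transcribed pseudogene).

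Solute carriers are membrane proteins that move nutrients, ions, metals and metabolites across the plasma membrane and the membranes of organelles, each by binding its cargo on 1 side and releasing it on the other. The family number in a gene's name groups carriers of related sequence and, in most families, of related substrate. In T cells they supply amino acids to the growth kinase mTORC1, carry lactate and glucose products, feed the mitochondria and set cell volume through sodium, potassium and chloride.

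The libraries came from regulatory T cells (Tregs) of the spleens of C57BL/6 mice whose red fluorescent reporter marks Foxp3 and whose green fluorescent reporter marks RORγt, the transcription factor of type 17 T cells. Both groups were sorted as CD3+ CD4+ Foxp3 reporter-positive cells. The 3 RORγt+ libraries came from cells positive for the RORγt reporter, and the 3 RORγt− libraries from cells negative for it that carried the chemokine receptor CCR6. CCR6 was part of the gate in the RORγt− group only, so the sort differed in RORγt and in CCR6 at once. The mice were described as naïve, and their age, sex and number were not given in the labels. The labels do not say which animals a library came from, and a p-value here reflects variation among 3 libraries a group, part of which can be technical.

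Values are normalized counts as the authors deposited them, and the approximate depth was 9200000 to 14500000 reads per library, with RORγt+ replicate 3 the shallowest. RORγt+ replicate 3 stood apart: 1247 genes were listed at 0 there against 438 to 638 in the others, its correlation with the others across genes was 0.932 to 0.938, and a fit that weights libraries by their residuals gave it a weight of 0.199 against 1.15 to 1.69. Counts over the 174 genes and over each class are therefore also given without it. Foxp3, the defining Treg factor, was at 10835, 11072 and 12609 in RORγt+ against 9914, 10187 and 9789.7 in RORγt− libraries. Ikzf2, which encodes the Treg factor Helios, had its lowest value, 1435, in RORγt+ replicate 3, and 5 libraries lay between 4784 and 7969. All RORγt+ values of Foxp3, Il2ra (9625, 8021 and 7070.3 in RORγt+ against 5609, 6333 and 6396 in RORγt− libraries) and Ctla4 (2157, 2078 and 2599.9 in RORγt+ against 1423, 1871 and 1548 in RORγt− libraries) lay above all RORγt− values, and no Treg marker passed an adjusted p of 0.05. B cell markers summed to 7451 to 10931 normalized counts in the RORγt+ libraries and 8409 to 10658 in the RORγt− libraries (10 of 10 measured). Red cell markers summed to 256 to 1223 and 75.7 to 6187 (8 of 10 measured, the highest in RORγt− replicate 2), monocyte and macrophage markers to 294 to 386 and 834 to 979 (9 of 14 measured, of which 7 had a mean under 20; without Cybb, 97.1 to 117 and 29.7 to 61.8), neutrophil markers to 124 to 251 and 70.8 to 95.4 (4 of 10 measured), and γδ and innate type 17 markers to 287 to 341 and 135 to 201 (10 of 10 measured). Cybb thus set the direction of the monocyte and macrophage sum, 7 of the 9 markers having a log2 fold change above 0 (median 1.39). Mmp9 was the largest part of the neutrophil sum in each library, at 117, 69.4 and 226 in RORγt+ against 42.4, 67.9 and 37.1 in RORγt− libraries. Of the 4 neutrophil markers, 3 had a log2 fold change above 0, among them Csf3r at 0.09, and Cxcr2 was at -0.12. S100a9 was at 2.13, 17.8 and 0 in RORγt+ libraries and at 0 in each RORγt− library. Of the 10 γδ and innate type 17 markers, 2 passed an adjusted p of 0.05, both higher in RORγt+ libraries, while 3 had a log2 fold change below 0. Markers not measured had no row among the deposited values. Those values held 0 genes with a mean under 1, so no listed marker could be at 0 in all 6 libraries. The part of these cells in the values below was not tested. In bulk RNA, fewer cells of a type and less RNA per cell cannot be told apart.

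Across the 174 solute carrier genes no difference between the groups passed an adjusted p of 0.05 in limma's test on log2(value + 1), with the adjustment over all 15944 genes, of which 90 passed (0.564%). The smallest adjusted p among the 174 was 0.116, for Slc12a2. At an unadjusted p under 0.05 there were 25 genes (14.4%), where 10.9% of all genes lay under that limit and 11.5% of genes with a mean of at least 20. Of the 25, 13 were higher in RORγt+ cells, as were 4.8% of all genes, and 12 were lower, as were 6.12%. The values of the groups did not overlap for 38 genes (21.8%), against 18.1% of all genes and 19.2% of those with a mean of at least 20. In 22 the RORγt+ values were all above (8.31% of all genes) and in 16 all below (9.81%). The log2 fold change, RORγt+ minus RORγt−, was above 0 for 107 of 174 (61.5%) against 48.8% of all genes and 50% of those with a mean of at least 20, with a median of 0.08 against -0.01 over all genes. Here and below, the values of a gene are in the order of replicates 1 to 3 of each group, and ± after a log2 fold change is its standard error. For 171 of 174 the log2 fold change was smaller than 1 in size, against 11073 of the 11649 genes with a mean of at least 20. For 112 of 174 its 95% interval also lay within 1 on either side of 0, against 7997 of those 11649.

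Those counts moved with RORγt+ replicate 3. It held the highest value of 71 of the 174 genes (40.8%, against 32.2% of all genes with a mean of at least 20) and the lowest of 31 (17.8% against 30.9%). Without it, 174 genes passed an adjusted p of 0.05 (1.09%) and 0 solute carriers (smallest adjusted p = 0.0539, Slc39a4), and 37 carriers were under an unadjusted p of 0.05 (22 of them among the former 25) where 17.7% of all genes were. Of the carriers, 95 then had a log2 fold change above 0, against 8020 of all 15944 genes, and the median was 0.02 against 0.002. When libraries were weighted by their residuals, 358 genes passed (2.25%), and 3 solute carriers were among them: Slc17a9 (0.59, adjusted p = 0.0376) and Slc38a9 (0.79, adjusted p = 0.0415), higher in RORγt+ cells, and Slc12a2 (-0.79, adjusted p = 0.0388), lower. The values in the next paragraphs are from the equally weighted fit unless stated. Counts by class below stand beside the shares of all genes. Under an unadjusted p of 0.05 these were 10.9% with 6 libraries (4.8% higher, 6.12% lower) and 17.7% without RORγt+ replicate 3. The log2 fold change was above 0 for 48.8% of all genes with 6 libraries.

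Levels between genes were compared as normalized counts per kb of the longest annotated transcript. The level was highest for Slc25a5 (2179 per kb), the main ADP/ATP exchanger of the inner mitochondrial membrane in dividing cells. It was followed by the scaffold gene Slc9a3r1 (1521), the choline carrier-like gene Slc44a2 (926), the mitochondrial phosphate carrier Slc25a3 (656) and the glutamine and neutral amino acid exchanger Slc1a5 (552). The sugar carrier Slc50a1 (516), the zinc carrier of the endoplasmic reticulum Slc39a7 (435), the purine nucleoside carrier Slc28a2 (433) and the mitochondrial oxoglutarate carrier Slc25a11 (396) were also among the 10 highest, of which 9 are named here. With merged exon length in place of the longest transcript, 9 of the 10 stayed among the 10 highest. Neighbours in this order were often within the spread of libraries: per kb, Slc28a2 ranged from 396 to 505 and Slc39a7 from 359 to 486. Slc25a5 had the highest level in each library, with its lowest at 1858 while Slc44a2 never exceeded 1164, and Slc9a3r1 reached 2152 in RORγt+ replicate 3.

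Some of these levels rest on sequence that other genes share. Of the 31-base windows of a gene's exons, 76.8% were shared for Slc39a7 (with Gm20427), 49.4% for Slc25a5 and 46.3% for Slc28a2. Under 5% was shared for 130 of the 174 genes and over 20% for 15, and the span of 28 overlapped a protein-coding gene on the opposite strand. Whether the counting used strand is not given in the sources used here, so levels of these genes are uncertain.

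**Figure D1:**
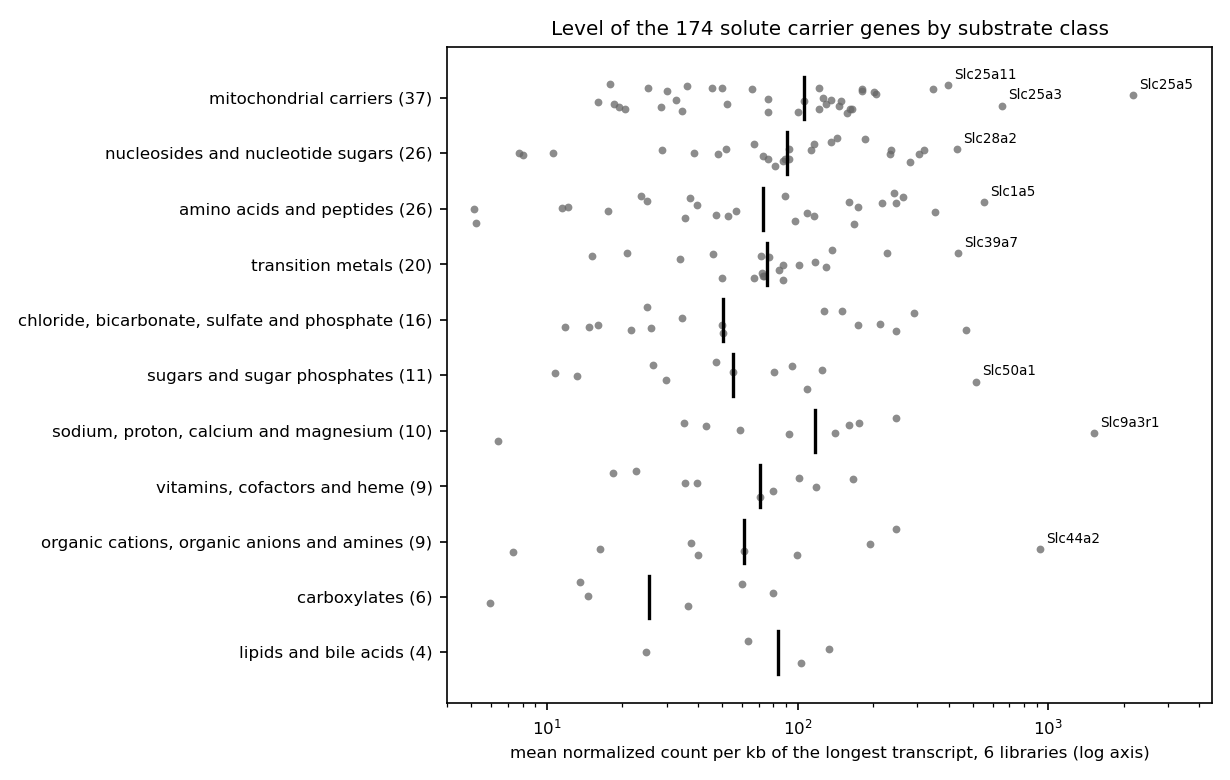
Mean normalized count per kb of the longest transcript over the 6 libraries (log axis) for each of the 174 genes, by substrate class with the number of genes in brackets. Points are genes, the vertical bar is the class median, and the labelled points are 9 of the 10 highest, from Slc25a11 (396) to Slc25a5 (2179).

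Summed per kb over its genes, the mitochondrial carrier class made up 29% ± 0.513 (SD, n = 3) of the solute carrier level in RORγt+ libraries and 27.3% ± 0.596 in RORγt− libraries, the highest share of the 11 classes. Amino acid and peptide carriers followed the nucleoside and nucleotide sugar carriers in RORγt+ libraries (12.9% ± 0.637 against 14.5% ± 0.436), and the classes stood at 14.2% ± 0.355 and 14.1% ± 0.079 in RORγt− libraries, within each other's spread. The mitochondrial class was also the largest, with 37 of the 174 genes, and its highest gene, Slc25a5, shared 49.4% of its windows with other genes. The total includes the scaffold gene Slc9a3r1, which encodes no carrier. Shares of 1 total are tied to each other and were not tested.

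Of the carriers of chloride, bicarbonate, sulfate and phosphate (16 genes), 6 were under an unadjusted p of 0.05 (37.5%, against 10.9% of all genes). Of these, 5 were lower and 1 higher in RORγt+ cells, and the class median log2 fold change was -0.05. The 16 genes and the 5 lower ones include Slc4a1ap, which encodes no carrier. Without RORγt+ replicate 3 the counts were 4 lower and 2 higher, where 17.7% of all genes lay under that limit. Slc12a2 encodes the sodium-potassium-chloride cotransporter NKCC1, which loads cells with chloride and restores volume after shrinkage. It was measured at 231, 264 and 191 in RORγt+ against 385, 408 and 479 in RORγt− libraries. Each RORγt+ value was below each RORγt− value, and the log2 fold change was -0.89 ± 0.18 (adjusted p = 0.116), 95% interval -1.32 to -0.46. Leaving out 1 library at a time gave adjusted p-values from 0.0797 to 0.452.

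Slc12a4 encodes the potassium-chloride cotransporter KCC1, which carries chloride out of swollen cells (chr8:105943590-105966097, minus strand). Its values were 154, 120.2 and 152 in RORγt+ against 268, 273 and 191 in RORγt− libraries, with a log2 fold change of -0.77 ± 0.22 (adjusted p = 0.249). The RORγt− values were all above the RORγt+ values, the lowest of them in replicate 3. Slc12a8, a divergent relative, was low in all libraries, at 22.4, 49.8 and 29.3 in RORγt+ against 51.9, 65.3 and 61 in RORγt− libraries, a log2 fold change of -0.86 ± 0.35 (adjusted p = 0.436). Slc12a7 (KCC4), at 1326, 2055 and 1781 in RORγt+ against 1758, 1599 and 1825 in RORγt− libraries, overlapped between the groups, with a log2 fold change of -0.03 ± 0.18 (adjusted p = 0.979). Slc12a9 was at 64, 93.3 and 98.4 in RORγt+ against 94.1, 79.9 and 91.4 in RORγt− libraries, also with overlap (log2 fold change -0.07 ± 0.25, adjusted p = 0.964). Slc12a7 and Slc12a9 were named after their values were seen.

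Slc26a2, a sulfate carrier, was measured at 836, 905 and 632 in RORγt+ against 1024, 1302 and 1269 in RORγt− libraries, with no overlap and a log2 fold change of -0.61 ± 0.18 (adjusted p = 0.271). Slc20a1, a sodium-coupled phosphate carrier, was the only gene of the class on the higher side under an unadjusted p of 0.05, at 1090.1, 1112 and 1024 in RORγt+ against 892, 775 and 917 in RORγt− libraries, a log2 fold change of 0.32 ± 0.13 (adjusted p = 0.42). Slc4a1ap, the adaptor gene, was at 499.8, 536 and 472 in RORγt+ against 785, 604 and 683 in RORγt− libraries, a log2 fold change of -0.45 ± 0.15 (adjusted p = 0.332). Slc26a10, an anion exchanger relative, had 1 of the 5 largest negative log2 fold changes (-0.94 ± 0.45), but its values, 22.7, 44.2 and 19.8 in RORγt+ against 81.7, 34.4 and 52.3 in RORγt− libraries, overlapped, and 17% of its windows were shared with other genes.

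Among the amino acid and peptide carriers (26 genes), 12 had a log2 fold change above 0 (46.2%, against 48.8% of all genes), and the median was -0.03. At an unadjusted p under 0.05, 3 were higher and 1 lower (15.4%, against 10.9% of all genes). Without RORγt+ replicate 3 these counts were 3 and 4, where 17.7% of all genes lay under that limit. Slc38a9 encodes the lysosomal arginine-responsive carrier that signals to mTORC1 (chr13:112660751-112738749, plus strand). Its values were 457, 407 and 305 in RORγt+ against 272, 243 and 217 in RORγt− libraries, without overlap, and the log2 fold change was 0.66 ± 0.20 (adjusted p = 0.29). Within the RORγt+ group, replicate 3 was the lowest, and without it the log2 fold change was 0.82 (adjusted p = 0.0713). Slc36a1, a proton-coupled exporter of small amino acids from lysosomes, was at 354, 517 and 251 in RORγt+ against 245, 207 and 214 in RORγt− libraries. The RORγt+ values spread widely, replicate 3 lying just above RORγt− replicate 1, and the log2 fold change was 0.69 ± 0.27 (adjusted p = 0.409), or 0.95 (adjusted p = 0.0895) without RORγt+ replicate 3.

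Slc7a10, an exchanger of small neutral amino acids known mainly from the brain and from fat tissue, had the largest fold change of the 174 genes. It was measured at 18.6, 35.1 and 8.78 in RORγt+ against 99, 94.1 and 39 in RORγt− libraries. All RORγt+ values were lower, although RORγt− replicate 3 lay near RORγt+ replicate 2. The log2 fold change was -1.93 ± 0.57 (adjusted p = 0.275), and it ran from -2.39 to -1.45 with 1 library left out. The gene overlaps Lrp3 on the opposite strand, with which it shared 14.9% of its windows. Slc66a2 was at 83.6, 97.8 and 114 in RORγt+ against 57.4, 54 and 57 in RORγt− libraries, a log2 fold change of 0.79 ± 0.23 (adjusted p = 0.268). Slc15a3, a lysosomal carrier of histidine and peptides, was at 88.6, 67.3 and 65.8 in RORγt+ against 33.1, 67.4 and 31.9 in RORγt− libraries, and the groups met at RORγt− replicate 2. The gene gave 0.80 ± 0.36 (adjusted p = 0.478) and shared 27.6% of its windows, mostly with Tmem132a on the opposite strand.

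The heteromeric exchangers pair the glycoprotein Slc3a2 (CD98) with a light chain. Slc3a2 was measured at 387, 867 and 1342 in RORγt+ against 1413, 774 and 1194 in RORγt− libraries. The spread within the RORγt+ group, from 387 to 1342, covered most of the RORγt− range, and the log2 fold change was -0.51 ± 0.44 (adjusted p = 0.762). Its light chain Slc7a5, the leucine carrier LAT1, was at 307, 308 and 508 in RORγt+ against 377, 396 and 399 in RORγt− libraries and had a log2 fold change of -0.10 ± 0.22 (adjusted p = 0.934), which was -0.34 (adjusted p = 0.214) without RORγt+ replicate 3. Slc7a6, which exchanges cationic for neutral amino acids, was at 401, 422 and 392 in RORγt+ against 467, 429 and 509.9 in RORγt− libraries, a log2 fold change of -0.21 ± 0.14 (adjusted p = 0.683). The light chains Slc7a11 (mean 10.01), Slc7a7 (7.82) and Slc7a8 (2.07) lay below the mean of 20.

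Slc1a5, Slc38a1 and Slc38a2 carry glutamine and other neutral amino acids across the cell surface. Slc1a5 was at 1298, 1576 and 1861 in RORγt+ against 1676, 1645 and 1239 in RORγt− libraries, a log2 fold change of 0.05 ± 0.18 (adjusted p = 0.966). Slc38a1 was at 1585, 2009 and 1623 in RORγt+ against 1720.3, 1791 and 1798 in RORγt− libraries, and its neighbour on chromosome 15, Slc38a2, at 1547, 1484 and 1536 in RORγt+ against 1601, 1412 and 1485 in RORγt− libraries, with log2 fold changes of -0.03 and 0.02. Slc38a1 and Slc38a2 were named after their values were seen. The 95% interval for Slc38a2, -0.24 to 0.29, gives the size of difference these libraries leave possible. Slc6a8, the creatine carrier, lay just above the limit at 15.4, 29.7 and 21.1 in RORγt+ against 23.1, 29 and 5.94 in RORγt− libraries, with overlap (log2 fold change 0.38 ± 0.61, adjusted p = 0.898).

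Promoters were searched for 4 short motifs in RefSeq windows of 300 bases (build GRCm38.p6), which matched 131 of the 174 genes. AGGTCA, the core that ROR factors recognise, was present on either strand in 16 of them (12.2%) against 16% of 27025 RefSeq promoters. The E-box CACGTG was present in 21 (16% against 7.24%), TGATGNAA, the core of the amino acid response element, in 4 (3.05% against 4.06%) and in 0 of 18 amino acid carriers, and the metal response core (TGCACNC or TGCGCNC) in 49 (37.4% against 25.6%). The windows of the solute carriers had a median GC content of 63% against 52.7% over all promoters, and its part in these shares was not tested. Of genes under an unadjusted p of 0.05, AGGTCA was present for 2 of 7 on the higher side and 0 of 10 on the lower side. The 2 were Slc36a1 and Slc20a1, and in both the AGGTCA match overlaps an E-box by 2 letters, giving AGGTCACGTG, a string found on either strand in 4 promoters of the set (3.05%, with Slc12a7 and Slc37a3) and 57 of all promoters (0.211%). That string was noticed after the sequences were seen, and a match is a description of letters, not of binding. The 250 bases before the start are printed for these 2 genes and for Slc38a9, which has no match, with the AGGTCA match in capitals (TGACCT where it lies on the other strand).
Slc36a1 (chr11:55204090-55204339, plus strand): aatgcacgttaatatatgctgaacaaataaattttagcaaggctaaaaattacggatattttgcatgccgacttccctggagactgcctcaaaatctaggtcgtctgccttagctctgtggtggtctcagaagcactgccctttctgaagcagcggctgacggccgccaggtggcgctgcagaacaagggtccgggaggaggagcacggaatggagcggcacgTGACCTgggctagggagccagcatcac
Slc20a1 (chr2:129198523-129198772, plus strand): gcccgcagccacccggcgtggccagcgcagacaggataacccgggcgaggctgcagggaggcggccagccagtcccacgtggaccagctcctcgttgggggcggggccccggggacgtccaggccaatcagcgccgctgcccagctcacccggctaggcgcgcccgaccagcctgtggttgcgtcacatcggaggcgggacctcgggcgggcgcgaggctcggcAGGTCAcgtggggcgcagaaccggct
Slc38a9 (chr13:112660516-112660765, plus strand): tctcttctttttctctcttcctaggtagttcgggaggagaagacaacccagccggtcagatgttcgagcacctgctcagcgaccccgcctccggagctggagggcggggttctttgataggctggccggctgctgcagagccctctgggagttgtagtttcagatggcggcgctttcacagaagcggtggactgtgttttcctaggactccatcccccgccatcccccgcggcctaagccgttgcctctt

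Nucleoside and nucleotide sugar carriers (26 genes) included the closely related neighbours Slc28a2 and Slc28a2b on chromosome 2, which import purine nucleosides with sodium. Slc28a2 was measured at 1943, 1582 and 1975 in RORγt+ against 1547, 1563 and 1561 in RORγt− libraries. The RORγt+ values were all higher, replicate 2 by a small margin, and the log2 fold change was 0.23 ± 0.13 (adjusted p = 0.613). Slc28a2b was at 671, 733 and 1168 in RORγt+ against 499.8, 568 and 542 in RORγt− libraries, without overlap and highest in RORγt+ replicate 3, with a log2 fold change of 0.63 ± 0.22 (adjusted p = 0.359). Summed, the pair stood at 2614, 2315 and 3142 against 2047, 2131 and 2103, which avoids the question of how reads were split between them. The coding sequences are both 1980 bases long and identical at 1872 of these (94.5%), with a longest identical run of 192 bases, and 46.3% of Slc28a2 windows and 39.4% of Slc28a2b windows were shared. The 90-base stretches below, from the GENCODE M21 coding sequences (GRCm38) and numbered from the first coding base, show where reads can and cannot be told apart: coding bases 157 to 246 are the same in both genes, and bases 385 to 474 differ at 37 places, shown in capitals.
Slc28a2 and Slc28a2b, bases 157 to 246: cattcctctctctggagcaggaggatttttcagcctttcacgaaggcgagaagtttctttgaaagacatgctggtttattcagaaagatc
Slc28a2, bases 385 to 474: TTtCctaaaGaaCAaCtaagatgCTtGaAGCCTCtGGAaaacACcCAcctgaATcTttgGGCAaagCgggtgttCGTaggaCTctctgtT
Slc28a2b, bases 385 to 474: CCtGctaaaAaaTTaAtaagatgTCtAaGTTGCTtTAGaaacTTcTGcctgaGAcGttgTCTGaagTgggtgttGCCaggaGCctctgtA

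Family 35 includes the nucleotide sugar carriers that feed glycosylation in the Golgi and endoplasmic reticulum, but not every gene of the family is known as one. In the rest of this class, 15 of 20 genes of family 35 had a log2 fold change above 0 (75%, against 48.8% of all genes, median 0.12), and 10 of 20 without RORγt+ replicate 3 (median -0.02). Slc35d1, which carries UDP-glucuronic acid and UDP-N-acetylgalactosamine, was at 474, 335 and 345 in RORγt+ against 275, 272 and 309 in RORγt− libraries, without overlap, and gave 0.41 ± 0.19 (adjusted p = 0.481). Slc29a2 and Slc29a4, equilibrative carriers, were near the limit of 20 and had log2 fold changes of 0.87 ± 0.68 and 0.72 ± 0.70, with overlapping values. Slc29a2 was at 35.6, 35.8 and 10.1 in RORγt+ against 10.8, 6.24 and 27.7 in RORγt− libraries, low in RORγt+ replicate 3, and Slc29a4 was at 58.8 in RORγt+ replicate 2 and at no more than 21.2 elsewhere. Slc29a1, the ENT1 carrier, named after its values were seen, was at 310.4, 509 and 986 in RORγt+ against 608, 703 and 601 in RORγt− libraries, both extremes lying in the RORγt+ group. Over all 26 genes 1 was under an unadjusted p of 0.05 with 6 libraries (3.85%, against 10.9% of all genes). Without RORγt+ replicate 3 there were 6, where the share of all genes rose to 17.7%.

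Carriers of organic cations, organic anions and amines (9 genes) held the gene with the second smallest unadjusted p, Slc17a9, the carrier that loads ATP into secretory vesicles (chr2:180725263-180742280, plus strand). It was measured at 725, 658 and 608 in RORγt+ against 473, 446 and 448 in RORγt− libraries. Every RORγt+ value was above every RORγt− value, the RORγt− libraries lay close together, and the log2 fold change was 0.54 ± 0.14 (adjusted p = 0.201), 95% interval 0.22 to 0.85. Without RORγt+ replicate 3 it was 0.60 (adjusted p = 0.0713). In the class, 2 genes were higher and 1 lower at an unadjusted p under 0.05 (33.3%), with and without that library. The shares of all genes were 10.9% with it and 17.7% without it. Slc17a5, the sialic acid exporter of lysosomes, was at 139, 178 and 152 in RORγt+ against 90.2, 125 and 90.8 in RORγt− libraries, a log2 fold change of 0.62 ± 0.22 (adjusted p = 0.375). Slc22a15, a member of the organic ion family, stood lower in each RORγt+ library, at 192, 218 and 110.4 in RORγt+ against 303, 342 and 311 in RORγt− libraries, with a log2 fold change of -0.93 ± 0.27 (adjusted p = 0.263) and RORγt+ replicate 3 the lowest. Slc44a2 was at 3607, 3587 and 4745 in RORγt+ against 3756, 3569 and 3394 in RORγt− libraries, a log2 fold change of 0.14 ± 0.14 (adjusted p = 0.803).

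**Figure D2:**
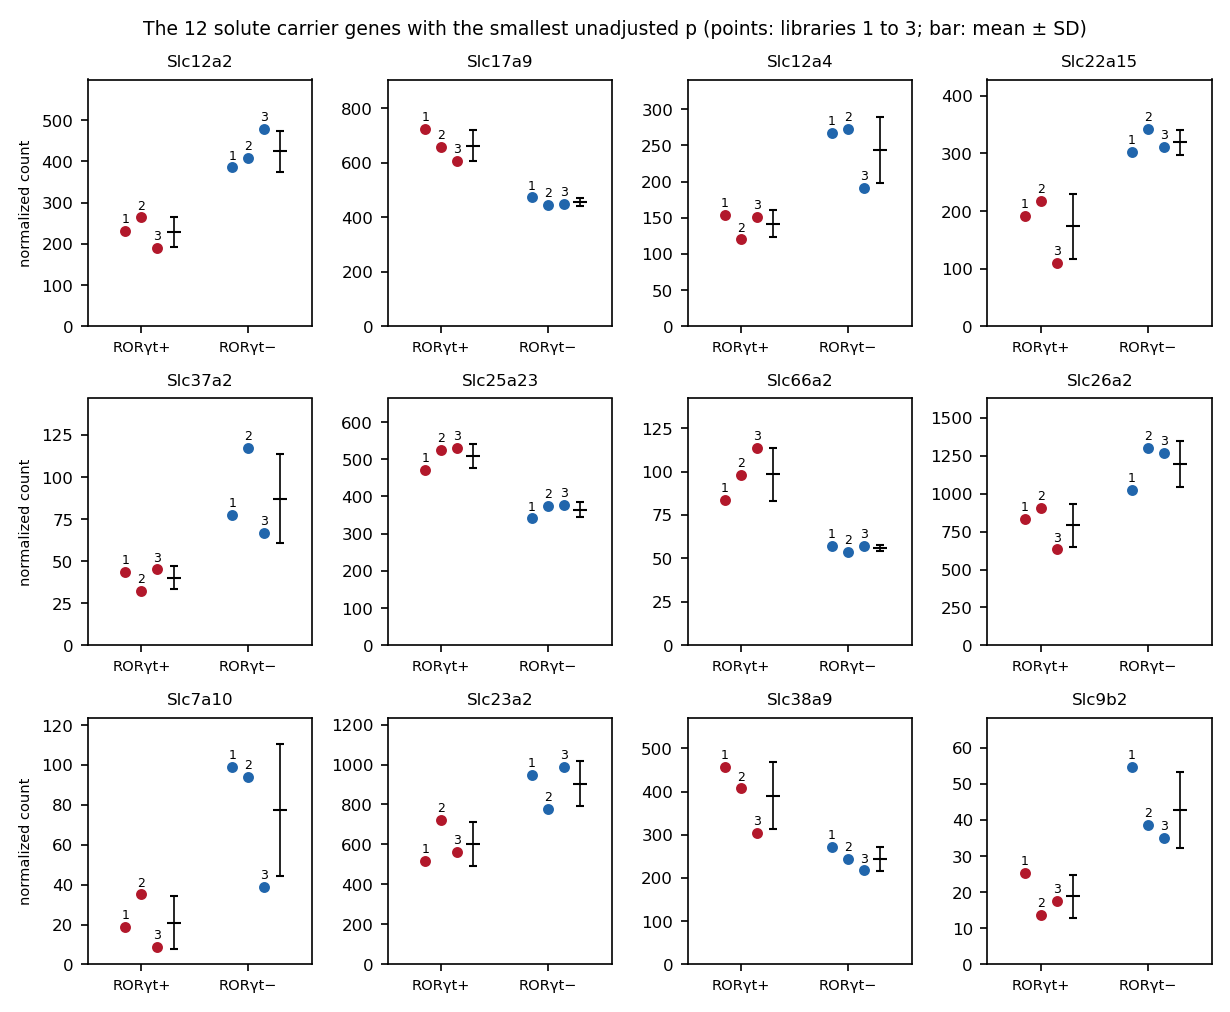
Normalized counts in each library (points, numbered by replicate) and the mean ± SD of each group (bars, n = 3) for the 12 genes with the smallest unadjusted p. The groups do not overlap in any panel, Slc12a2 runs from 191 to 479 and none of the 12 passed an adjusted p of 0.05. The 12 were chosen by p in these same values, so the lack of overlap was largely set by that choice.

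Among the carboxylate carriers (6 genes), 1 was higher and 1 lower at an unadjusted p under 0.05 (33.3%, against 10.9% of all genes). Without RORγt+ replicate 3 the counts were 0 and 1, where 17.7% of all genes lay under that limit. Slc16a3 (MCT4, a lactate exporter of glycolytic cells) was low, at 32.6, 57.5 and 48.7 in RORγt+ against 85, 80.5 and 74.1 in RORγt− libraries. No RORγt+ value reached the RORγt− values, and the log2 fold change was -0.81 ± 0.29 (adjusted p = 0.368). Slc16a1 (MCT1) was more abundant, at 342, 325 and 399.9 in RORγt+ against 346, 359 and 350.2 in RORγt− libraries, a log2 fold change of 0.01 ± 0.15 (adjusted p = 0.989). Slc16a5 and Slc16a13, less well understood members, were on the other side, Slc16a5 at 86.8, 91.8 and 137 in RORγt+ against 72.4, 64.5 and 61.3 in RORγt− libraries (log2 fold change 0.64 ± 0.26, adjusted p = 0.435) and Slc16a13 at 36.2, 39.8 and 53.8 in RORγt+ against 33.4, 21.2 and 21.1 in RORγt− libraries (log2 fold change 0.77 ± 0.34, adjusted p = 0.475). Slc16a1 and Slc16a3 need a membrane partner to reach the surface. Bsg, the partner of Slc16a1 and Slc16a3, was at 1603, 1619 and 2310.4 in RORγt+ against 1762, 1721 and 1555 in RORγt− libraries, a log2 fold change of 0.12 ± 0.17 (adjusted p = 0.885). Emb, the embigin partner, was at 2698, 2869 and 3075 in RORγt+ against 1779.8, 1939 and 1887 in RORγt− libraries, without overlap and with a log2 fold change of 0.62 ± 0.11 (adjusted p = 0.0771). Without RORγt+ replicate 3 its adjusted p was 0.046 and with library weights 0.0198, past the limit of 0.05 in each.

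Mitochondrial carriers (37 genes, all of family 25) had 27 log2 fold changes above 0 (73%, against 48.8% of all genes) and a median of 0.16. Without RORγt+ replicate 3, which held the highest value for 19 of them, 28 were above 0 and the median was 0.11. At an unadjusted p under 0.05 there were 2, both higher (5.41%, against 10.9% of all genes), and 4 higher without that library, where the share of all genes was 17.7%. Slc25a23, a calcium-regulated exchanger of ATP-magnesium for phosphate, was at 470.3, 524 and 531 in RORγt+ against 341, 375 and 378 in RORγt− libraries, without overlap and with a log2 fold change of 0.48 ± 0.14 (adjusted p = 0.266). Slc25a17, a carrier of coenzyme A and related cofactors in the peroxisome membrane, was counted in this class by its family number and is not mitochondrial. Slc25a17 was at 283, 369 and 538 in RORγt+ against 215, 234 and 232 in RORγt− libraries, highest in RORγt+ replicate 3, with a log2 fold change of 0.75 ± 0.24 (adjusted p = 0.318).

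Slc25a20, the carnitine and acylcarnitine exchanger of fatty acid oxidation, was at 465, 478 and 525 in RORγt+ against 405, 393 and 411 in RORγt− libraries, and the log2 fold change was 0.28 ± 0.13 (adjusted p = 0.527). The abundant Slc25a5 was at 2741, 2584 and 3527 in RORγt+ against 2474, 2583 and 2304 in RORγt− libraries, where RORγt− replicate 2 lay just below RORγt+ replicate 2, and gave 0.25 ± 0.15 (adjusted p = 0.626). Slc25a3 was at 2508, 2429 and 3826 in RORγt+ against 2467, 2528 and 2129 in RORγt− libraries (log2 fold change 0.27 ± 0.19, adjusted p = 0.701). Slc25a11 was at 704, 594 and 821 in RORγt+ against 696, 686 and 569.9 in RORγt− libraries (log2 fold change 0.11 ± 0.17, adjusted p = 0.892). The last 2 overlapped between groups, with RORγt+ replicate 3 the highest of the 6 libraries in each.

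Transition metal carriers (20 genes) had 16 log2 fold changes above 0 with 6 libraries (80%, against 48.8% of all genes, median 0.13) and 10 without RORγt+ replicate 3 (median 0.02). At an unadjusted p under 0.05 there was 1, higher (5%, against 10.9% of all genes). Without that library there were 2 higher and 2 lower, where the share of all genes was 17.7%. Slc11a2, the divalent metal carrier DMT1 that takes iron out of endosomes, was at 290.4, 323 and 615 in RORγt+ against 255, 210.2 and 192 in RORγt− libraries. The RORγt+ libraries were all higher, replicate 3 far above the other 2, and the log2 fold change was 0.82 ± 0.30 (adjusted p = 0.375), or 0.49 (adjusted p = 0.221) without it. Zinc exporters of family 30 had a log2 fold change above 0 in 6 of 6 (median 0.25), and in 4 of 6 without that library. Slc30a6, a Golgi zinc carrier, was at 204, 146 and 202 in RORγt+ against 171, 144 and 126 in RORγt− libraries (log2 fold change 0.31 ± 0.22, adjusted p = 0.698). Slc39a7, which releases zinc from the endoplasmic reticulum, was at 947, 874 and 1077 in RORγt+ against 1182, 1102 and 1170.0 in RORγt− libraries, all RORγt+ values lower, with a log2 fold change of -0.26 ± 0.13 (adjusted p = 0.549). Slc39a4, a zinc importer, was at 124, 131 and 408 in RORγt+ against 227, 262 and 244 in RORγt− libraries: RORγt+ replicates 1 and 2 were below all RORγt− values and replicate 3 above them. Its log2 fold change was -0.38 over 6 libraries and -0.93 (adjusted p = 0.0539) without RORγt+ replicate 3. Slc39a4 was named after its values were seen.

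Carriers of sodium, protons, calcium and magnesium (10 genes) had 1 gene higher and 2 lower at an unadjusted p under 0.05 (30%, against 10.9% of all genes). The counts were the same without RORγt+ replicate 3, where the share of all genes was 17.7%. Slc9b2, a sodium-proton exchanger, was low, at 25.4, 13.6 and 17.5 in RORγt+ against 54.7, 38.7 and 35 in RORγt− libraries, without overlap, and gave -1.16 ± 0.37 (adjusted p = 0.312). Slc41a1, a magnesium carrier, was at 549.6, 714 and 739 in RORγt+ against 1236, 899.9 and 796 in RORγt− libraries, and RORγt− replicate 1 was the highest; the log2 fold change was -0.54 ± 0.21 (adjusted p = 0.406). The scaffold Slc9a3r1 was at 2669.6, 2745 and 4142 in RORγt+ against 2882, 2454 and 2670.1 in RORγt− libraries, with overlap (log2 fold change 0.23 ± 0.19, adjusted p = 0.747).

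Sugar and sugar phosphate carriers (11 genes) had 4 log2 fold changes above 0 (36.4%, against 48.8% of all genes). Under an unadjusted p of 0.05 there was 1 gene (9.09%, against 10.9%), and 2 without RORγt+ replicate 3 (17.7% of all genes). With all 6 libraries this was Slc37a2, a sugar phosphate exchanger known from macrophages, at 43.7, 32.2 and 45.1 in RORγt+ against 77.7, 117 and 66.7 in RORγt− libraries. All RORγt+ values were lower, and the log2 fold change was -1.07 ± 0.31 (adjusted p = 0.264). Of the monocyte and macrophage markers, Cybb was lower in the RORγt+ libraries too (197, 269 and 203 in RORγt+ against 798, 917 and 929 in RORγt− libraries; log2 fold change -1.99 ± 0.17, adjusted p = 0.00859), while 7 of the 9 measured had a log2 fold change above 0, and their part in Slc37a2 was not tested. Slc2a9, a urate carrier, was at 213, 213 and 249.6 in RORγt+ against 179.7, 156 and 182 in RORγt− libraries (log2 fold change 0.38 ± 0.17, adjusted p = 0.491). Slc50a1 was at 724, 651 and 905 in RORγt+ against 691, 619 and 532 in RORγt− libraries (log2 fold change 0.30 ± 0.18, adjusted p = 0.626).

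Vitamin, cofactor and heme carriers (9 genes) had 7 log2 fold changes above 0 (median 0.17), but RORγt+ replicate 3 held the highest value for 7 of the 9, and without it 3 of 9 were above 0 and the median was -0.19. At an unadjusted p under 0.05, 1 was higher and 1 lower (22.2%, against 10.9% of all genes), and 0 and 1 without RORγt+ replicate 3 (17.7% of all genes). Slc23a2, the vitamin C carrier SVCT2, was at 518, 724 and 564 in RORγt+ against 948, 776 and 988 in RORγt− libraries. The RORγt+ values were all lower, RORγt+ replicate 2 and RORγt− replicate 2 lying close, and the log2 fold change was -0.59 ± 0.18 (adjusted p = 0.275). Slc52a3, a riboflavin carrier, was at 62.2, 65 and 99 in RORγt+ against 43.9, 46.3 and 47.8 in RORγt− libraries (log2 fold change 0.67 ± 0.28, adjusted p = 0.44). Slc19a2, a thiamine carrier, had the largest positive log2 fold change of the 174 genes, 0.92 ± 0.60 (adjusted p = 0.671), but its values, 65.9, 36.7 and 164 in RORγt+ against 23.7, 35.5 and 67.6 in RORγt− libraries, overlapped and rested on RORγt+ replicate 3: without it the log2 fold change was 0.34 (adjusted p = 0.753).

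Lipid and bile acid carriers (4 genes) had 0 genes under an unadjusted p of 0.05, with or without RORγt+ replicate 3, where 10.9% and 17.7% of all genes were. Slc10a7, a relative of the bile acid carriers, had the smallest unadjusted p of the class. It was at 263, 1009.8 and 209 in RORγt+ against 225, 227 and 296 in RORγt− libraries, a single high library, RORγt+ replicate 2, standing over 5 close ones. The difference of 0.62 ± 0.54 (adjusted p = 0.764) on the log2 scale went to -0.08 when that library was left out.

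**Figure D3:**
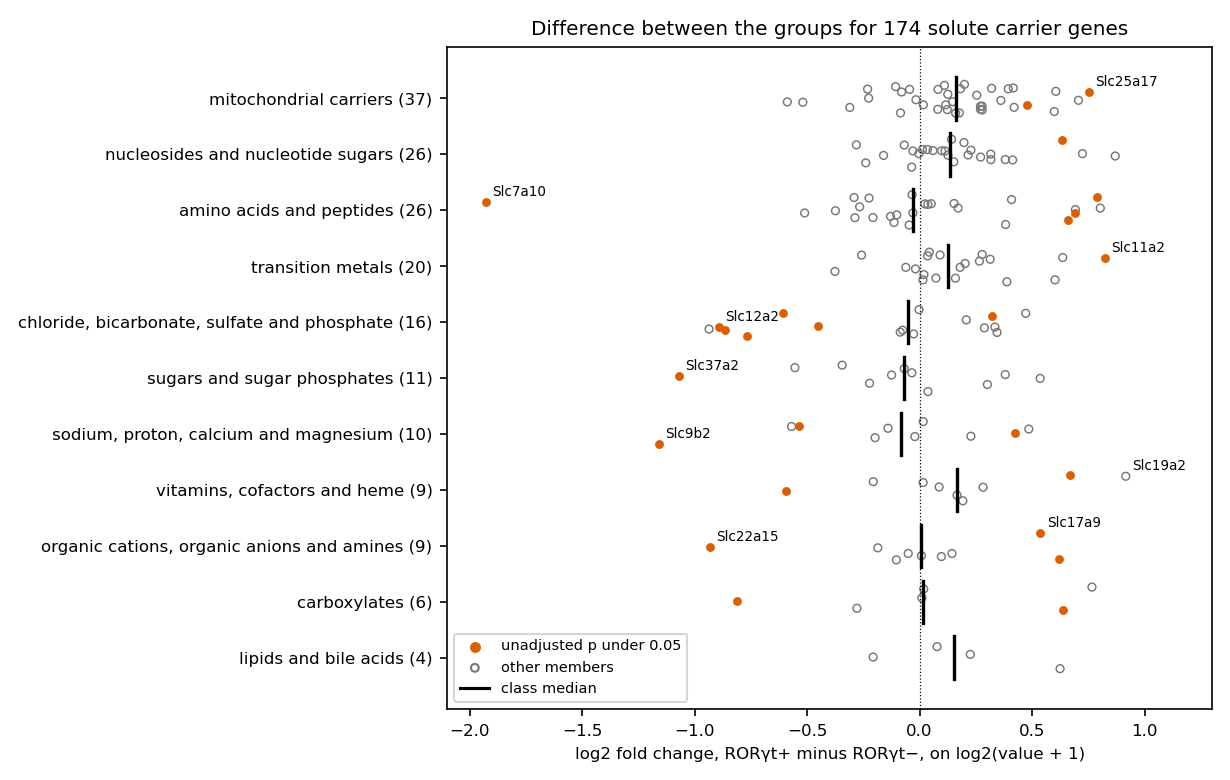
Log2 fold change on log2(value + 1), RORγt+ minus RORγt−, for each of the 174 genes by substrate class. Filled points had an unadjusted p under 0.05 (25 genes), open points did not, and bars are class medians, which lie between -0.08 and 0.17 while single genes run from -1.93 to 0.92.

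**Figure D4:**
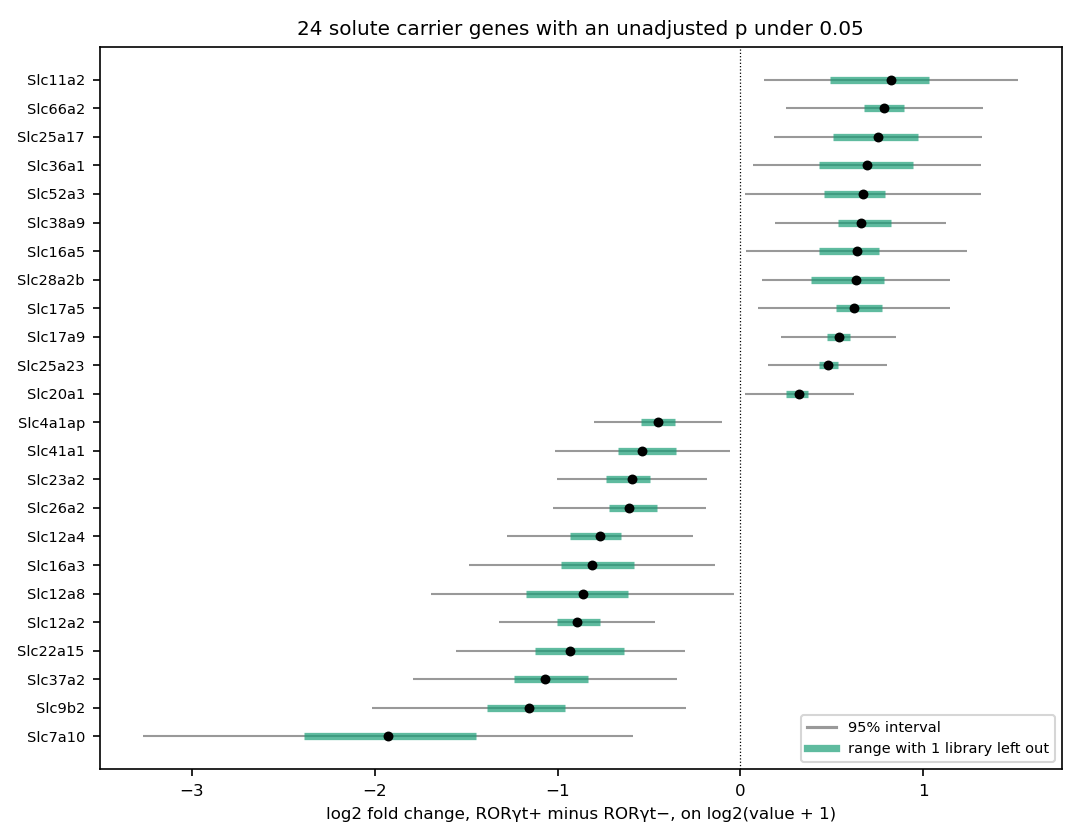
Log2 fold change with its 95% interval (thin line) and its range when 1 library is left out (thick line) for 24 of the 25 genes with an unadjusted p under 0.05. No thick line crosses 0, and Slc7a10 has the widest, from -2.39 to -1.45. The genes were chosen for a small p in these same values, so the kept sign was largely set by that choice.

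Several carriers differed more among the libraries of a group than between the groups, and these were chosen after their values were seen. Slc15a4, a lysosomal histidine and peptide carrier needed for endosomal Toll-like receptor signalling, was at 688, 57.9 and 154 in RORγt+ against 65.4, 530.0 and 224 in RORγt− libraries, an 11.9-fold range with high libraries in both groups. Slc30a7, a Golgi zinc carrier, was at 634, 1603 and 465 in RORγt+ against 391, 1167 and 461 in RORγt− libraries, replicate 2 being the high library of each group. Slc4a7, a sodium bicarbonate cotransporter, was at 1927, 1998 and 841 in RORγt+ against 838, 1365 and 1554 in RORγt− libraries, where RORγt+ replicate 3 and RORγt− replicate 1 were the low ones. The within-group SD of Slc15a4 was 1.65 on the log2 scale, against a median of 0.28 over the 174 genes and 0.27 over all genes with a mean of at least 20. In 31 of the 174 the highest library was over 3 times the lowest. Slc14a1, a urea carrier that red cells also express, was at 694, 668 and 617 in RORγt+ against 619.6, 958 and 709 in RORγt− libraries, highest in RORγt− replicate 2, where Hba-a2 stood at 3097 against 35.4 to 608 in the others; the part of red cells in it was not tested.

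**Figure D5:**
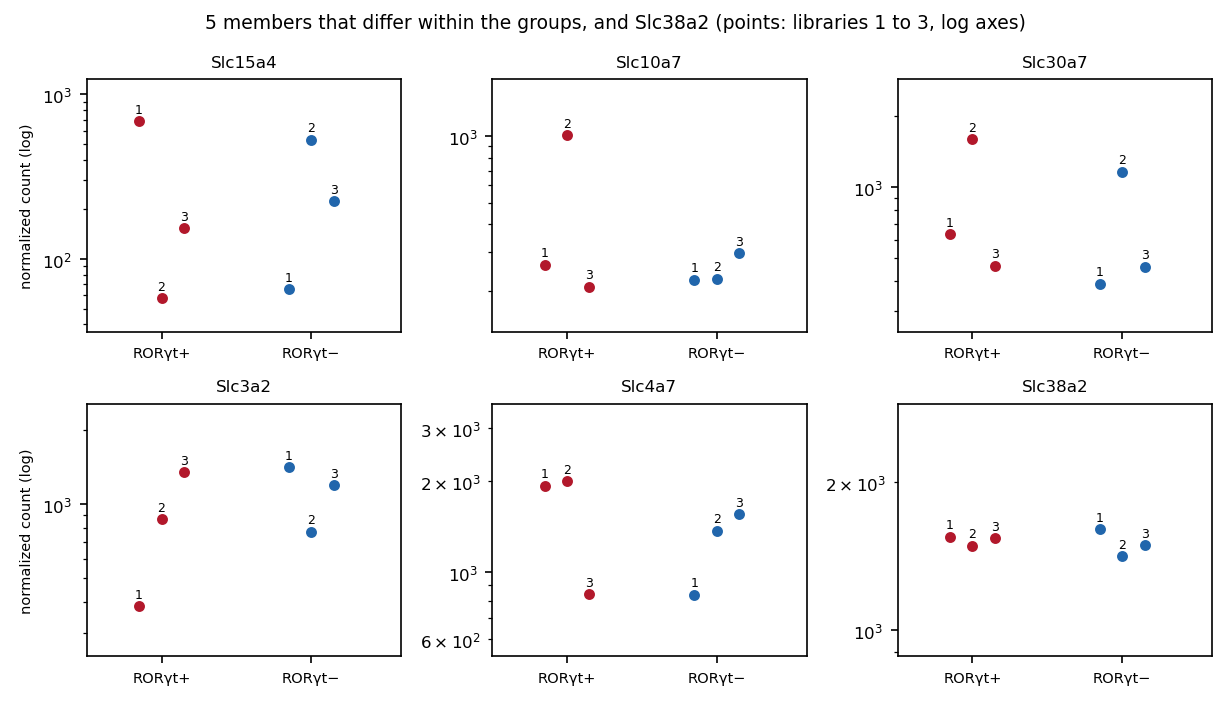
Normalized counts (log axes) in each library, numbered by replicate, for 5 genes that differ within the groups and for Slc38a2. Slc15a4 runs from 57.9 to 688 inside the RORγt+ group alone, while the 6 values of Slc38a2 lie between 1412 and 1601.

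Genes that work with the carriers were read from 5 further lists, and none of their members passed an adjusted p of 0.05 in the equally weighted fit. Of the partners and auxiliary subunits, 17 of 20 were measured, and 3 were higher and 1 lower at an unadjusted p under 0.05 (23.5%, against 10.9% of all genes; median 0.14). The 17 include the scaffold gene Slc9a3r1, which is also counted among the 174 genes. Besides Emb, the arrestin-domain protein Arrdc4, which promotes removal of glucose carriers from the surface, was at 173, 140.0 and 258 in RORγt+ against 481, 352 and 406 in RORγt− libraries, without overlap, with a log2 fold change of -1.15 ± 0.25 (adjusted p = 0.141). Its adjusted p was 0.0339 without RORγt+ replicate 3 and 0.0159 with library weights.

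Of 20 genes of cell volume and chloride regulation, 18 were measured (median -0.06, 10 of them below 0), and 2 were higher at an unadjusted p under 0.05, 0 lower (11.1%). Sgk1, a kinase that acts on ion carriers, was at 232, 193 and 223 in RORγt+ against 112, 80.7 and 66.4 in RORγt− libraries, without overlap, with a log2 fold change of 1.34 ± 0.24 (adjusted p = 0.0775). Its adjusted p was 0.0842 without RORγt+ replicate 3 and 0.0306 with library weights. Lrrc8a, the obligate subunit of the volume-regulated anion channel, was at 816, 777 and 848 in RORγt+ against 665, 495 and 535 in RORγt− libraries (log2 fold change 0.54 ± 0.15, adjusted p = 0.253). Stk39, the kinase SPAK that acts on cation-chloride cotransporters and was named after its values were seen, was at 411, 411 and 460.4 in RORγt+ against 564, 512 and 519.8 in RORγt− libraries, without overlap (log2 fold change -0.31 ± 0.14, adjusted p = 0.463).

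In the amino acid sensing list, 49 of 51 genes were measured, 2 higher and 3 lower at an unadjusted p under 0.05 (10.2%, median 0.04). Sesn1, a leucine-responsive inhibitor of mTORC1 signalling, was at 2352, 2111 and 3162 in RORγt+ against 1617, 1581 and 1620.4 in RORγt− libraries (log2 fold change 0.64 ± 0.16, adjusted p = 0.212), and Lamtor5, a subunit of the lysosomal anchor of mTORC1, at 452, 446 and 614 in RORγt+ against 349, 390.2 and 349 in RORγt− libraries (log2 fold change 0.46 ± 0.17, adjusted p = 0.399). Those lower were Mtor, Tsc1 and Eif2ak4, with log2 fold changes of -0.38, -0.37 and -0.42. Transporters outside the Slc naming had 32 of 38 measured, 3 higher and 2 lower (15.6%, median 0.15), among them Nipa2, a magnesium carrier (log2 fold change 0.51 ± 0.17, adjusted p = 0.324), and Sfxn3, a mitochondrial serine carrier (log2 fold change 0.34 ± 0.12, adjusted p = 0.368). Of the zinc and iron handling genes, 17 of 25 were measured, 0 higher and 1 lower (5.88%, median 0.19): Mtf1, the metal-responsive transcription factor, was at 399, 536 and 338 in RORγt+ against 755, 592 and 583 in RORγt− libraries (log2 fold change -0.61 ± 0.21, adjusted p = 0.343), and Hmox1, the heme-degrading oxygenase, with the next smallest p, gave -0.83 ± 0.41 (adjusted p = 0.544).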

How the data were processed

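Expression was measured by bulk RNA-seq in 3 RORγt+ and 3 CCR6+ RORγt− Treg libraries. The table the authors deposited holds 1 signal value per gene and library, normalized counts with 2 decimals and not raw counts. Salmon 1.2.0, DESeq2 with no version and GRCm38 appear in the submitters' processing notes without roles. From the values, 1 read was worth 0.821 to 1.24, and 51.3% to 69.1% of values up to 20 reads lay within 0.1 read of a whole number, so reads were not recovered and the log-scale test for normalized values was used. Approximate depth is the column total divided by the value of 1 read.

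Values were taken as log2(value + 1) without a filter and compared between groups in limma 3.58.1 (R 4.3.3), with trended empirical Bayes moderation, a two-sided test, Benjamini-Hochberg adjustment over 15944 genes and a threshold of 0.05. This scale understates fold changes where counts are low. Residual degrees of freedom were 4 and prior ones 3.43, and the script was tested on simulated data. Transcripts, positions and shared 31-base windows came from GENCODE M21 (GRCm38), which held 15866 of the genes and all 174 carriers, and promoters from RefSeq (GRCm38.p6).

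Solute carriers and lists were chosen with earlier results of these data known, so no list was tested. Named were the 3 smallest unadjusted p in each class (1 in classes under 5 genes), the 10 highest per kb, the 5 largest fold changes each way, the 3 rows on either side of the mean of 20, the heteromeric exchangers, Slc16a1 and Slc16a3 with Bsg and Emb, and the 2 smallest p of each further list. The rule named the 45 carriers reported, and the 4 others under an unadjusted p of 0.05 (Slc36a1, Slc4a1ap, Slc20a1 and Slc12a8) were added after their values were seen. Some items are not reported here. Alternatives were other pseudocounts (0.1 and 5), upper-quartile and total scaling, a filter on a mean of 10, robust variances, library weights, a replicate block and leaving out each library. Merged exon length was added as an alternative after the data were seen.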

Additional observations from a re-analysis of the deposited data

How the results depend on the processing

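The labels do not say whether same-numbered libraries were paired. Their deviations from their group means correlated at -0.105, -0.022 and -0.184 for replicates 1 to 3. These values show no shared deviation by number, but they cannot settle how the libraries were prepared. With the replicate number as a block, 1 gene and 0 solute carriers passed an adjusted p of 0.05, with 1130 genes and 17 carriers under an unadjusted p of 0.05. Other pseudocounts, scalings, a filter on a mean of 10 and robust variances gave 84 to 103 genes and 0 carriers. Upper-quartile scaling moved the median of all genes to -0.06 and that of the carriers to 0.03. With library weights, 358 genes and 3 carriers passed, 2 higher and 1 lower, with 2 partners and auxiliary subunits, 1 volume and chloride gene, and a vitamin carrier median of -0.144. Leaving out 1 library at a time gave 4 to 174 genes, 0 carriers, 0 to 2 partners and a vitamin carrier median of -0.186 to 0.286. The high end of 174 is without RORγt+ replicate 3, and every other omission gave 4 to 10.

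Of 49 named carriers, 43 kept the sign of their log2 fold change in every alternative run, and 671 of 686 comparisons kept sign and side of the limit. Many of the 49 were chosen for a small p or a large fold change in these same values, and none passed the limit in the equally weighted fit. These counts were therefore largely set by that choice and do not measure how stable the solute carriers are. With 1 library left out, Slc6a8 ranged from -0.269 to 0.787, Slc7a5 from -0.341 to 0.0195, Slc1a5 from -0.0886 to 0.185, Slc16a1 from -0.0767 to 0.0726, Slc10a7 from -0.0756 to 1.06 and Slc25a11 from -0.00382 to 0.229. Library weights turned Slc1a5 to -0.0416 and Slc16a1 to -0.0652, and upper-quartile scaling turned Slc16a1 to -0.0382. The cause was not tested. With 3 libraries a group and residual degrees of freedom of 4, genes with few reads, such as Slc9b2 and Slc7a10, have wide intervals, and a miss of the limit does not show that the groups were alike.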

Other observations

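Among the 46 solute carrier rows below the mean of 20, some rested on 1 library or 1 group. Slc4a1, the anion exchanger of red cells, was at 57.8 in RORγt+ replicate 2 and at no more than 3.53 elsewhere, while the red cell marker sum was highest in RORγt− replicate 2. Slc16a7, a monocarboxylate carrier, was at 37.2 in RORγt− replicate 3 and at no more than 2.23 elsewhere. Slc45a3, a sugar carrier relative, was at 5.37, 5.98 and 17.3 in the RORγt+ libraries and 1.01, 0 and 0 in the RORγt− libraries. Slc40a1, the iron exporter, was at 4.17, 2.98 and 12.2 against 1.05, 0.92 and 0. These rows rest on few reads, were chosen after their values were seen and carry no test here.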
